A study of Homo sapiens with 9 samples.

Results

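Integrin and laminin subunit genes were followed before and after sodium formate was added to cultures of LN229, a line established from a human glioblastoma. The members were 34 gene symbols listed for what they encode, 24 for integrin subunits and 10 for laminin chains. The list was proposed with earlier results of these data known, so counts of its members describe them and do not test the family. The count table of 23727 genes held 32 of them, 22 integrin and 10 laminin genes. ITGA8 and ITGAL were not analysed here. After the filter on low counts 27 of the 15273 tested genes were members, 19 integrin and 8 laminin genes.

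Cells grew in a medium with 17 mM glucose, 2 mM glutamine and 10% serum and were untreated at 0 h, given 500 µM formate for 8 h, or given 500 µM formate for 24 h. Each of the 3 groups held 3 libraries of poly(A) RNA, numbered 1 to 3 in the titles. LN229 was the 1 line used, and no label says whether the replicates were separate cultures, so p-values cover only the spread between these libraries. The name LN229 follows the growth protocol and series title, and the source label of the samples spells it differently. Every untreated library was taken at 0 h, and formate and hours in culture cannot be told apart in any comparison. These are bulk libraries, in which fewer cells of a type and less RNA per cell cannot be told apart either.

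Integrins are receptors of the cell surface, each made of an alpha and a beta subunit, that bind matrix proteins outside the cell and connect through adaptor proteins to actin inside it. The alpha subunit largely sets which ligand is bound: collagen, laminin, or proteins with an RGD motif such as fibronectin and vitronectin. Laminins are secreted trimers of an alpha, a beta and a gamma chain that polymerise into basement membrane. In glioblastoma, tumour cells spread along the basement membrane of blood vessels, and integrins and laminins have long been studied in that setting.

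Library totals lay between 22222298 and 25848242 counts, and the members together took between 0.522% and 0.701% of them. Levels are given as CPM, read counts relative to the TMM-scaled library total, and 3 counts corresponded to 0.116 to 0.141 CPM. On the first principal component, which held 70.7% of the variance of the 500 most variable genes, the libraries of 24 h scored 9.56 to 25.0 and the other 6 scored -23.5 to -0.80. Replicate 1 stood apart from its group at 0 h (-23.5) and at 8 h (-21.6).

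Promoters are shown for 4 chains and receptors on which the later comparisons turn, LAMA4 and LAMC1, which were higher at 24 h, and LAMB3 and ITGA5, which were lower. Each run is the 250 bases before the start of the gene in RefSeq (build GRCh38.p14), written in the gene's own direction. GENCODE release 29 has longer models for some genes: inside its span of the gene lie all 250 bases of the LAMA4 window, 194 of the ITGA5 window, 41 of the LAMB3 window and 0 of the LAMC1 window. LAMA4 lies on the minus strand at chr6:112254568-112254817, LAMC1 on the plus strand at chr1:183023170-183023419, LAMB3 on the minus strand at chr1:209652426-209652675 and ITGA5 on the minus strand at chr12:54419267-54419516. Capitals mark matches, on either strand, to any of 5 motifs, the AP-1 site TGANTCA, the TEAD site GGAATG, the GC box GGGCGG, the CCAAT box, and the E-box CAGGTG that ZEB and SNAIL factors bind.
LAMA4: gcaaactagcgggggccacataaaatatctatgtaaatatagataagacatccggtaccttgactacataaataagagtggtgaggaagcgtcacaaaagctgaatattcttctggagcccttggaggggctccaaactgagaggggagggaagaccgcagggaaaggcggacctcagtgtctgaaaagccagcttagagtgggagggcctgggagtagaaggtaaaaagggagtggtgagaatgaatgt
LAMC1: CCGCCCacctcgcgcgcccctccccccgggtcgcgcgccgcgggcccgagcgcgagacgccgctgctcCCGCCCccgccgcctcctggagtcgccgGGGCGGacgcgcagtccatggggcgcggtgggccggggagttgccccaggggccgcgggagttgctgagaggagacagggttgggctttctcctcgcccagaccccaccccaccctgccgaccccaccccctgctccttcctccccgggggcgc
LAMB3: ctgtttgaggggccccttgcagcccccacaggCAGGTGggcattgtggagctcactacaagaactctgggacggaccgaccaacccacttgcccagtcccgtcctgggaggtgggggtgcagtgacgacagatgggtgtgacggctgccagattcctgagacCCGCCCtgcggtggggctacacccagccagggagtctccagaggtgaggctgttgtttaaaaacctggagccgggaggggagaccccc
ITGA5: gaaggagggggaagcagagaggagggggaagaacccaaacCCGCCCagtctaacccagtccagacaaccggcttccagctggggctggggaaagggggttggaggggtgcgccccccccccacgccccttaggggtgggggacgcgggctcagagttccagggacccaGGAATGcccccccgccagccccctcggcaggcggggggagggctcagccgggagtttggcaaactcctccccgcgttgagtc

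The LAMC1 window held 3 GC boxes and was 79.6% G or C. The LAMA4 window held none of the 5 motifs and was 48.4% G or C, against a median of 58.0% over all promoters of the table. LAMB3 carried 1 GC box and 1 CAGGTG E-box, and ITGA5 carried 1 GC box and 1 TEAD site. RefSeq promoters were matched for 24 of the 34 symbols. A check that bases soon after the start lie in a GENCODE transcript of the gene passed for 23 of them, and LAMC1 was the exception. Among those 24, the GC box was found in 13, CAGGTG in 6, the TEAD site in 4, CCAAT in 2 and the AP-1 site in 1, LAMA3. The shares of all 35116 promoters with the same motifs in a window of that length were 42.6% for the GC box, 17.5% for CAGGTG, 11.9% for the TEAD site, 32.01% for CCAAT and 6.57% for the AP-1 site.

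**Figure D1:**
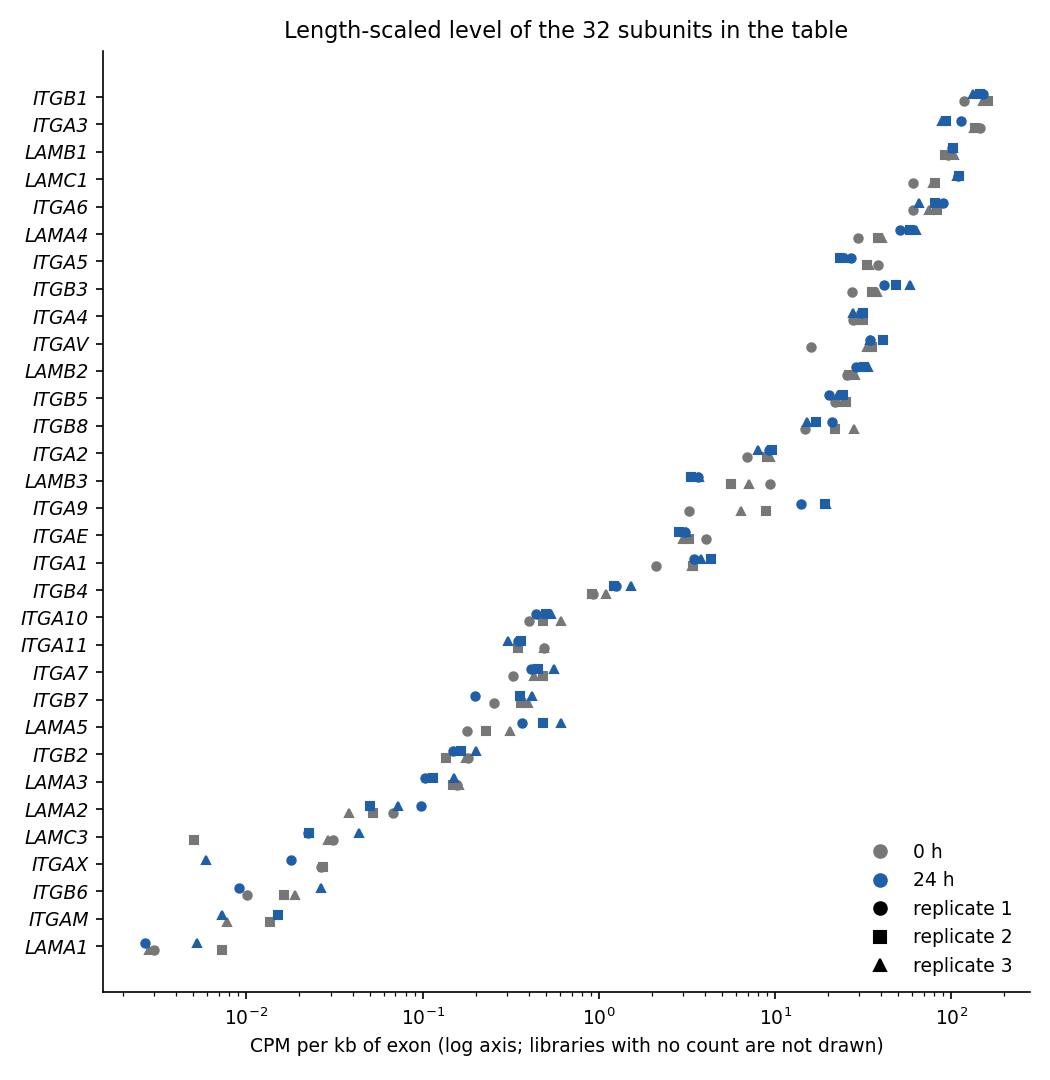
Length-scaled level of the 32 subunit genes in the table, in CPM per kb of exon on a log axis, with a point per library coloured by time. ITGB1 and ITGA3 stand highest at 0 h, at 144 and 138 CPM per kb, and the 5 genes that were not tested lie at the low end.

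Levels between genes were compared as CPM per kb of exon (GENCODE release 29). At 0 h the highest was ITGB1, the beta subunit that pairs with most alpha subunits of these cells, at 144 ± 22.5 CPM per kb (SD, n = 3). ITGA3, an alpha subunit for laminin, followed at 138 ± 5.94, and the pair did not differ beyond their spread. LAMB1, the most widespread beta chain of laminin, was at 97.04 ± 6.06.

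LAMC1, the gamma chain of most laminins, stood at 73.1 ± 10.9 CPM per kb and ITGA6, another alpha subunit for laminin, at 72.9 ± 11.5, so these neighbours in the order were level. Then came LAMA4, an alpha chain known from vessel walls, at 36.1 ± 5.85, ITGA5, the main fibronectin receptor alpha subunit, at 35.2 ± 2.69, and ITGB3, a beta subunit that pairs with ITGAV, at 33.6 ± 5.39. These also lay within their spread of each other. With the length of the longest coding transcript in place of all exons, 7 of these 8 genes remained among the 8 highest and ITGA3 came first.

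Below them, ITGA4, ITGAV, LAMB2, ITGB5 and ITGB8 had means between 21.5 and 29.8 CPM per kb at 0 h. ITGA2, LAMB3, ITGA9, ITGAE and ITGA1 had means between 2.97 and 8.45. The remaining 9 tested members, ITGB4, ITGA10, ITGA11, ITGA7, ITGB7, LAMA5, ITGB2, LAMA3 and LAMA2, had means under 1 CPM per kb. ZNF740 on the opposite strand overlaps 42.1% of the exons of ITGB7 and had 1166 to 1807 counts per library, so the level of ITGB7 is uncertain. Opposite-strand genes overlap 7.59% of the exons of ITGAE. The transcripts of laminin chains present at 0 h were thus mainly those of 1 alpha chain (LAMA4), 1 beta chain (LAMB1) and 1 gamma chain (LAMC1).

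The 5 genes that did not pass the filter were near the limit of detection. Over the 9 libraries ITGAM had 0 to 2 counts, ITGB6 and LAMA1 had 0 to 3, ITGAX had 0 to 5 and LAMC3 had 1 to 8. Other genes overlap 20.6% of the exons of ITGB6, on its strand, and 11.1% of those of LAMA1, on the opposite strand. ITGAM and ITGAX are alpha subunits of leukocytes. Of 6 leukocyte markers 4 were in the table; PTPRC had 1 to 3 counts, CD68 0 to 3, CSF1R 1 to 5 and LAPTM5 23 to 38. Their summed level, most of it LAPTM5, was 1.58 to 1.89 CPM at 0 h and 1.47 to 1.73 at 24 h. Among the subunits of leukocytes, ITGB2 was at 1.11 ± 0.166 CPM at 0 h and 1.17 ± 0.181 at 24 h.

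For the labelled line, the glial and neural progenitor list (GFAP, S100B, SOX2, NES and OLIG2; AQP4 was not analysed here) summed to 1112 to 1249 CPM at 0 h and 1382 to 1387 CPM at 24 h. Over the 9 libraries NES lay between 887 and 1011 CPM, S100B between 59.2 and 395 CPM, and GFAP had 3 to 10 counts. The mesenchymal list (VIM, FN1, CDH2, CD44, TNC) summed to 11356 to 14392 CPM at 0 h and 8390 to 10646 CPM at 24 h.

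After 24 h of formate, 6 of the 27 tested members (22.2%) differed from 0 h in edgeR's quasi-likelihood test with a Benjamini-Hochberg adjusted p under 0.05, where 4.25% of all tested genes did. ITGA9, LAMA4, LAMA5 and LAMC1 rose and LAMB3 and ITGA5 fell; 2.47% of all genes were called higher and 1.77% lower. By family these were 4 of 8 laminin and 2 of 19 integrin genes. The median log2 fold change was 0.07 over the members and 0.01 over all tested genes, with 16 members above 0 and 11 below. The libraries of 24 h lay wholly outside those of 0 h for 11 members (40.7%), beside 30.3% of all tested genes.

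The replicate numbers were taken to pair the libraries of 0 h and 24 h, which the correlations between libraries only partly bore out. With the number as a block 10 members (37%) were called, where 24.1% of all tested genes were. They were 7 higher and 3 lower members, beside 12.6% and 11.6% of all genes. The block added ITGA1, ITGB3 and ITGB4 as higher and ITGA3 as lower. The 6 calls made without the block rest on most of the libraries: 0 members passed when replicate 2 or replicate 3 of 24 h was left out, 1 (LAMB3) when replicate 3 of 8 h was, and 3 (LAMA4, LAMA5 and LAMB3) when replicate 3 of 0 h was. Calls over all tested genes went from 649 to 0, 0, 284 and 418 in the same fits. With the block, the 6 genes were called in each of the 9 fits that left out 1 library.

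**Figure D2:**
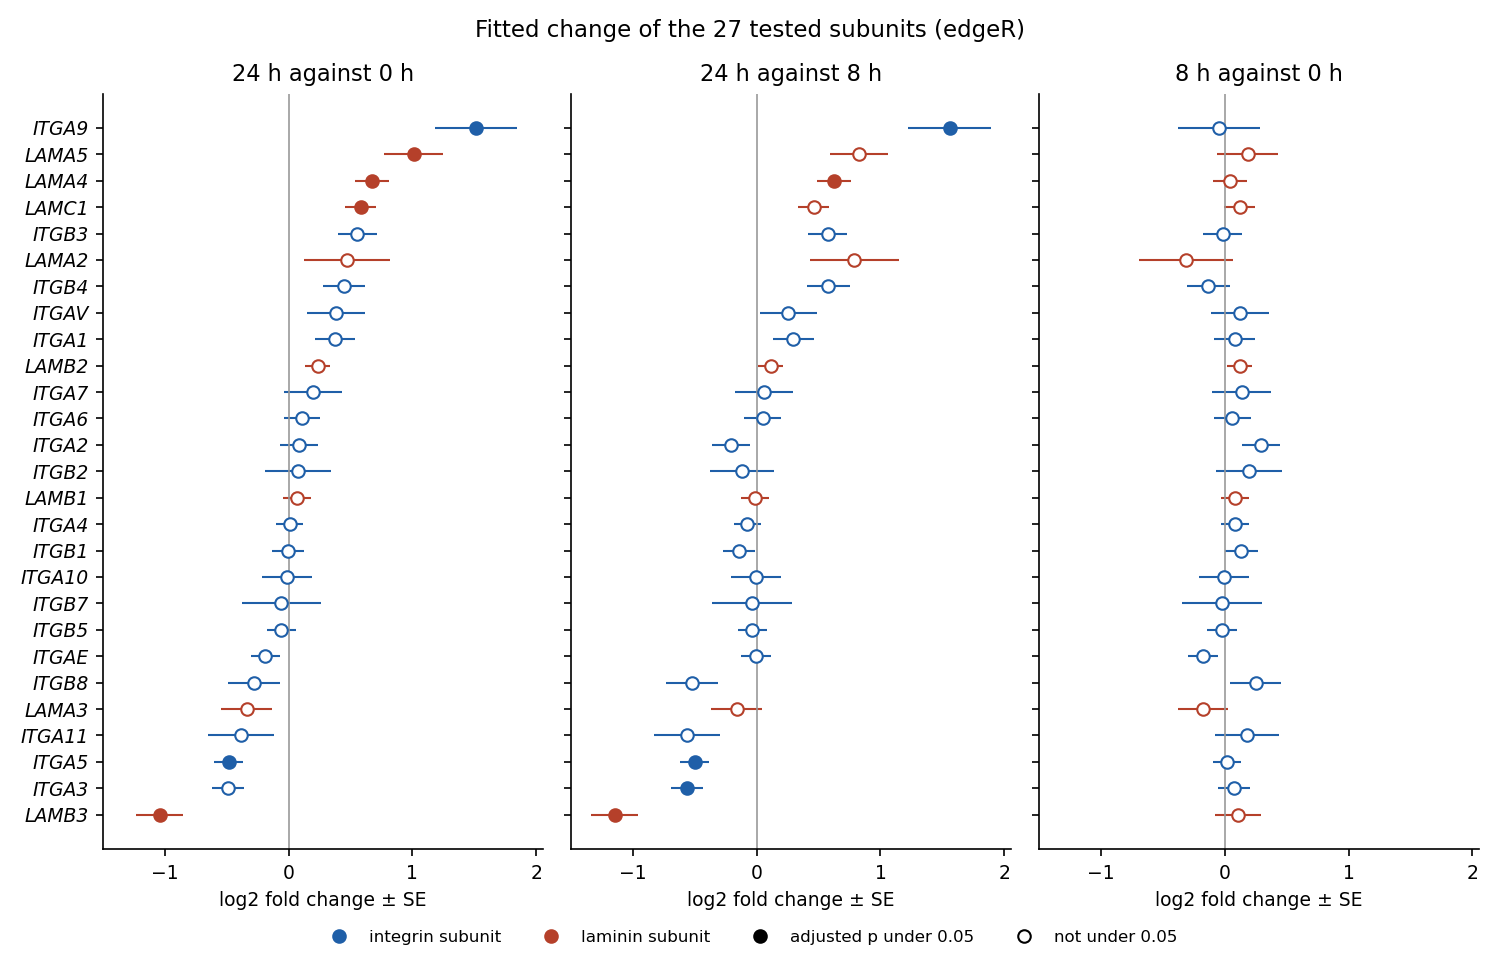
Fitted log2 fold change ± SE of the 27 tested subunits in the 3 comparisons, ordered by the change from 0 h to 24 h. Filled points have an adjusted p under 0.05: 6 at 24 h against 0 h, 5 at 24 h against 8 h and 0 at 8 h against 0 h.

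Among the integrin alpha subunits, ITGA9 changed most. It encodes a receptor subunit for tenascin and other matrix proteins (ENSG00000144668, chr3:37452115-37823514, plus strand). Its level was 26.9, 73.6 and 52.8 CPM in replicates 1, 2 and 3 at 0 h, 32.3, 69.6 and 46.7 at 8 h, and 117, 159.7 and 161 at 24 h. The lowest library of 24 h was above the highest of the other groups, and replicate 1 was lowest in every group. The log2 fold change from 0 h to 24 h was 1.51 (SE 0.33, adjusted p = 0.0331), with 2.12, 1.12 and 1.61 within numbers 1, 2 and 3. ITGA9-AS1, an antisense gene that overlaps 6.46% of its exons, had 51 to 75 counts per library, beside 570 to 3896 for ITGA9. The adjusted p of ITGA9 was 0.0581 with replicate 3 of 0 h left out, 0.0548 with replicate 3 of 8 h left out, and 0.139 or 0.160 with replicate 2 or 3 of 24 h left out.

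ITGA5 (ENSG00000161638, chr12:54395261-54419460, minus strand), whose promoter is shown above, measured 289.8, 251 and 259 CPM at 0 h, 308, 249.6 and 252 at 8 h, and 204, 177 and 191 at 24 h. All 3 libraries of 24 h were below all others, while those of 0 h and 8 h overlapped. It fell by 0.49 on the log2 scale from 0 h to 24 h (SE 0.12, adjusted p = 0.0403), and the changes within numbers were -0.50, -0.51 and -0.44. The call of ITGA5 was lost without any 1 of 7 libraries (adjusted p 0.0542 to 0.163) and kept without replicate 1 of 24 h or of 8 h.

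ITGA3 (ENSG00000005884, chr17:50055968-50090481, plus strand), the most abundant alpha subunit at 0 h, had 1421, 1327 and 1314 CPM at 0 h, 1577, 1369 and 1334 at 8 h, and 1119, 913 and 866 at 24 h. Its libraries of 24 h were also below all the others. The difference between 24 h and 0 h was -0.49 (SE 0.13) with an adjusted p of 0.0561, and it passed with the replicate block (adjusted p = 0.00183); over 13 alternatives the adjusted p ran from 0.00183 to 0.206.

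ITGA1, a collagen receptor subunit, was at 39.4, 63.5 and 62.5 CPM at 0 h, 54.5, 62.3 and 58.1 at 8 h and 64.5, 80.2 and 70.1 at 24 h. The gap between the highest library of 0 h and the lowest of 24 h was small beside the spread at 0 h. The log2 difference was 0.38 (SE 0.16, adjusted p = 0.174), and 0.0260 with the replicate block; the adjusted p ran from 0.0260 to 0.467 over the alternatives. Other genes on the strand of ITGA1 overlap 5.63% of its exons. PELO, which lies within ITGA1, had 680 to 1277 counts per library, beside 836 to 1859 for ITGA1. Its mean was 48.6 CPM at 0 h and 31.6 CPM at 24 h, and its part in the ITGA1 counts was not tested.

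ITGA6, the other abundant alpha subunit for laminin, had 396, 545 and 487 CPM at 0 h, 471, 546 and 474 at 8 h and 583, 528 and 428 at 24 h. The groups overlapped and the log2 difference of 24 h from 0 h was 0.11, with a 95% interval of -0.22 to 0.43. Opposite-strand genes overlap 5.37% of the exons of ITGA6; ITGA6-AS1, 1 of them, had 0 or 1 count. ITGAV, the alpha subunit of the vitronectin receptors, had means of 232 ± 87.4 CPM at 0 h and 302 ± 31.2 at 24 h. Its difference of 0.38 was not called (adjusted p = 0.312).

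Among the beta subunits, ITGB1 (ENSG00000150093, chr10:32900319-33005792, minus strand) measured 710.1, 966 and 913 CPM at 0 h, 964, 975 and 903 at 8 h, and 907, 869.5 and 799.7 at 24 h. The groups overlapped, and its difference of 24 h from 0 h was -0.01 with a 95% interval of -0.29 to 0.28 (adjusted p = 0.976). A pseudogene copy, ITGB1P1, had 29 to 45 counts per library.

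ITGB3 (ENSG00000259207, chr17:47253846-47311816, plus strand) was at 121, 157 and 165 CPM at 0 h, 125, 156 and 156 at 8 h and 181, 214 and 255 at 24 h. All libraries of 24 h were above all others. The log2 difference from 0 h was 0.56 (SE 0.16, adjusted p = 0.0639) and was called with the replicate block (adjusted p = 0.000857), with a range of 0.000857 to 0.270 over the alternatives. Another annotated gene on the same strand overlaps 51.6% of the exons of ITGB3, so its counts may be split between them.

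ITGB4, the beta subunit that pairs with ITGA6 in hemidesmosomes, was low, at 6.22, 6.20 and 7.39 CPM at 0 h, 5.08, 5.64 and 7.32 at 8 h and 8.46, 8.28 and 10.2 at 24 h. The lowest library of 24 h was above the highest of 0 h and of 8 h. Its difference from 0 h was 0.45 (SE 0.17, adjusted p = 0.136), with 0.0209 under the replicate block and a range of 0.0209 to 0.372 over the alternatives. ITGB8, whose product activates latent TGF-beta, went different ways within replicate numbers, by 0.50, -0.36 and -0.87.

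**Figure D3:**
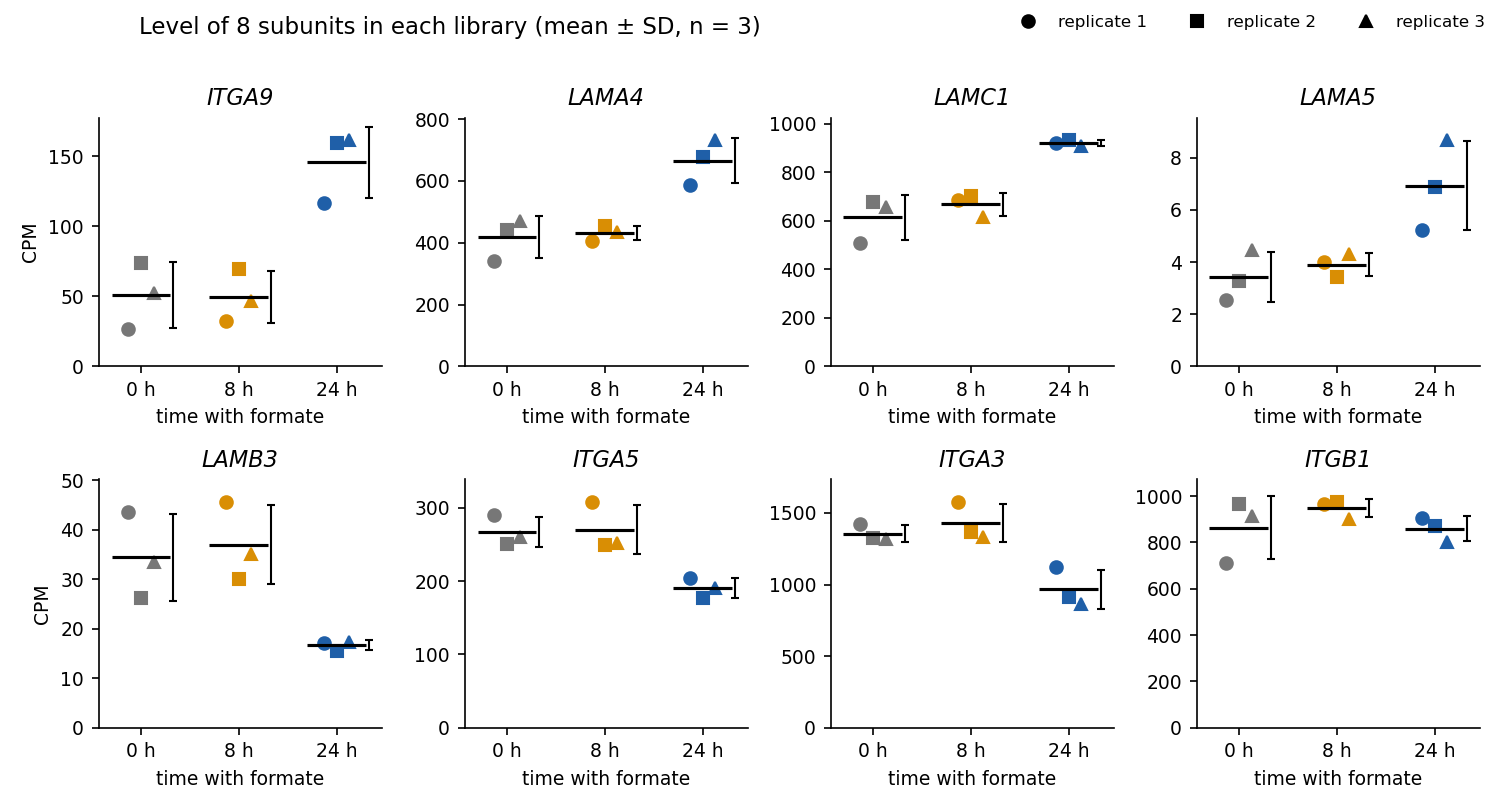
CPM of 8 subunits in each of the 9 libraries, by time with formate; symbols mark the replicate number, lines the group mean and bars the SD (n = 3). In 7 of the panels the libraries of 24 h lie outside those of 0 h and of 8 h, and in the ITGB1 panel they overlap.

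Among the laminin chains, LAMA4 (ENSG00000112769, chr6:112108760-112254939, minus strand) had 342, 442 and 471 CPM at 0 h, 407, 453 and 434 at 8 h, and 588, 678 and 731 at 24 h. Every library of 24 h exceeded every other. It rose by 0.67 on the log2 scale from 0 h to 24 h (SE 0.14, adjusted p = 0.0289), and by 0.78, 0.62 and 0.64 within the 3 replicate numbers. With replicate 2 or 3 of 24 h left out the adjusted p of LAMA4 was 0.134 or 0.148, and with replicate 3 of 8 h left out it was 0.0501.

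LAMA4 is also a gene of vessel walls. The endothelial markers summed to 0.501 to 1.04 CPM at 0 h and 1.29 to 1.95 CPM at 24 h, PECAM1 and KDR had 0 to 4 counts in any library and VWF had 7 to 38. The sum moved the same way as LAMA4, and its part in the result was not tested.

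LAMC1 (ENSG00000135862, chr1:183023460-183145592, plus strand), the partner gamma chain, was at 509, 676 and 658 CPM at 0 h, 684, 704 and 616 at 8 h, and 919, 931 and 907 at 24 h. Its 3 libraries of 24 h were close together and above all 6 others. The rise from 0 h was 0.58 (SE 0.13, adjusted p = 0.0317), with 0.85, 0.46 and 0.46 within numbers. Leaving out a library moved the adjusted p of LAMC1 to 0.0505 (replicate 3 of 0 h), 0.0546 (replicate 3 of 8 h), 0.148 (replicate 2 of 24 h) or 0.143 (replicate 3 of 24 h).

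LAMA5 (ENSG00000130702, chr20:62307955-62367312, minus strand), an alpha chain of many adult basement membranes, was low throughout. It measured 2.55, 3.27 and 4.47 CPM at 0 h, 4.0, 3.41 and 4.30 at 8 h and 5.24, 6.86 and 8.66 at 24 h. The groups of 0 h and 24 h did not overlap, and both were far above the level of 3 counts. It rose by 1.01 (SE 0.24, adjusted p = 0.0396), by 1.04, 1.07 and 0.95 within numbers, and its call was lost without any 1 of 6 libraries (adjusted p 0.0563 to 0.192) and kept without replicate 3 of 0 h or replicate 1 of 8 h or of 24 h.

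LAMB3 (ENSG00000196878, chr1:209614870-209652466, minus strand), a beta chain typical of epithelial basement membrane, went the other way. It was at 43.6, 26.2 and 33.4 CPM at 0 h, 45.6, 30.1 and 35.1 at 8 h, and 17.0, 15.5 and 17.4 at 24 h. All libraries of 24 h were below all others. It fell by 1.04 (SE 0.19, adjusted p = 0.0236), and the changes within numbers were -1.36, -0.76 and -0.94. Without replicate 2 or 3 of 24 h the adjusted p of LAMB3 was 0.116 and 0.112.

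Epithelial markers moved the same way as LAMB3. They summed to 139.8 to 203 CPM at 0 h and 109 to 126 CPM at 24 h, carried by KRT8 and KRT18, while EPCAM had 0 or 1 count and CDH1 0 to 2 counts in any library. Their part in the result was not tested.

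LAMB1, the abundant beta chain, had 779, 747 and 844 CPM at 0 h, 937, 773 and 799 at 8 h and 818, 827 and 836 at 24 h, and its difference of 24 h from 0 h was 0.07 with a 95% interval of -0.18 to 0.31. LAMB2, another widespread beta chain, differed by 0.23 with an adjusted p of 0.169. The differences of LAMA2 and LAMA3, both under 1 CPM per kb, were 0.47 and -0.34 and were not called.

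The mix of subunit transcripts was described as the share of each gene in the summed CPM per kb of its family. Among integrin alpha subunits ITGA3 held 42.5 ± 4.43% at 0 h and 32.4 ± 2.36% at 24 h, and the libraries did not overlap. ITGA9 held 1.06, 2.58 and 1.93% at 0 h and 4.32, 6.28 and 7.04% at 24 h. The summed level of all alpha subunits overlapped between the groups, at 327 ± 20.2 and 304 ± 25.0 CPM per kb.

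Among beta subunits ITGB1 held 64.2 ± 1.40% at 0 h and 61.0 ± 3.34% at 24 h, with overlap, and ITGB3 held 15.0 ± 0.51% and 21.1 ± 3.81%, without overlap. Summed laminin alpha transcripts went from 36.6 ± 5.90 to 58.2 ± 6.36 CPM per kb. LAMA4 was 98.8% of that sum at both times, so the rise of LAMA5 did not alter which alpha chain was commonest. Among laminin beta chains LAMB3 held 5.59 ± 1.36% at 0 h and 2.60 ± 0.16% at 24 h, and LAMB1 held 74.0% and 74.4%. A share in a sum moves when any of its members moves, and these shares were not tested.

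**Figure D4:**
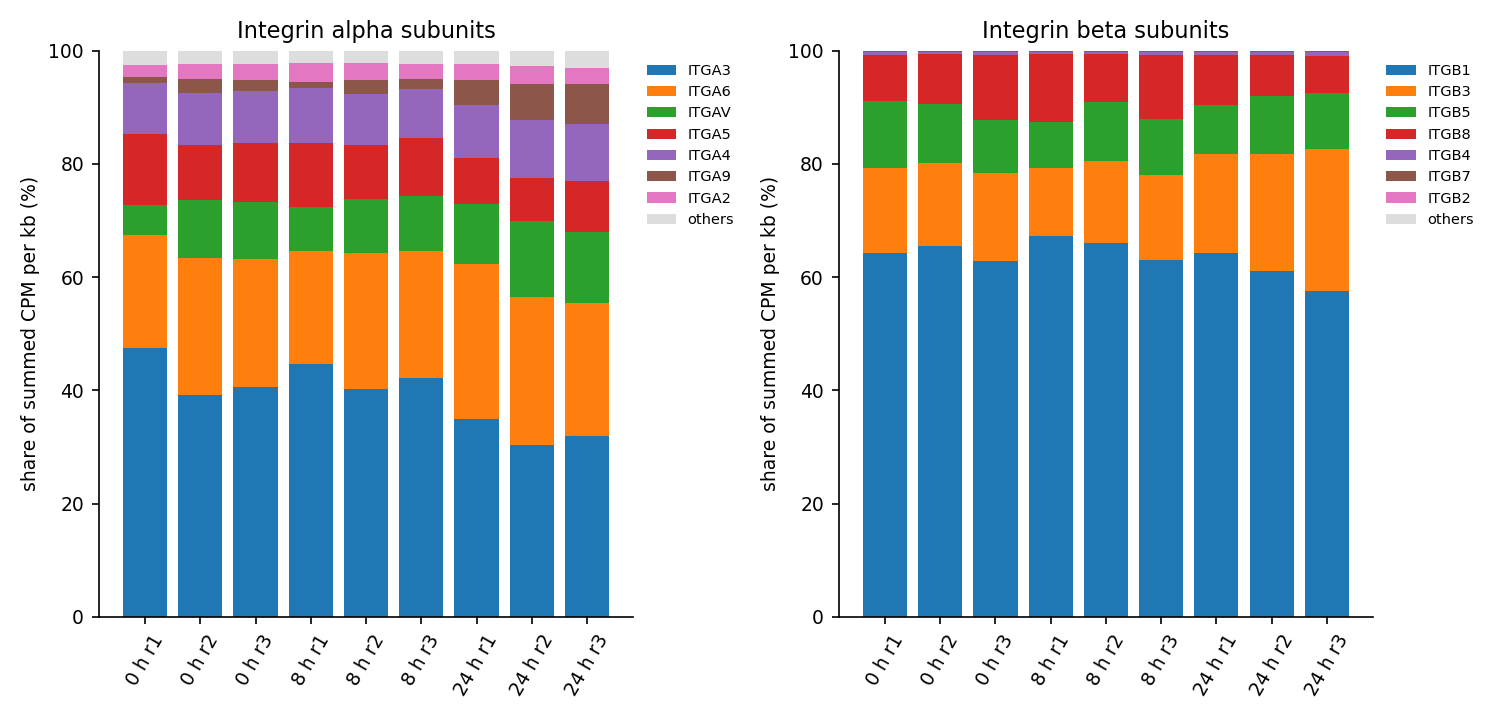
Share of each subunit in the summed CPM per kb of the integrin alpha (left) and beta (right) genes, in percent, with a bar per library labelled by time and replicate. The ITGA3 share is 39.2 to 47.5% at 0 h and 30.3 to 34.9% at 24 h, and the ITGA9 and ITGB3 shares are larger at 24 h.

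After 8 h of formate no member passed the test against 0 h. edgeR called 0 of 27, with 0 at an unadjusted p under 0.05, and DESeq2 and the fit with the replicate block also called 0. Of all tested genes, 0% were called and 0.517% had an unadjusted p under 0.05. Fitted log2 differences of the members lay between -0.31 and 0.29 with a median of 0.08, against -0.02 over all genes. Only LAMA3, an alpha chain of epithelial laminin, had libraries that did not overlap (3.7% of members against 3.31% of all genes), at 2.31, 2.19 and 2.35 CPM at 0 h and 2.13, 1.88 and 2.04 CPM at 8 h.

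Between 8 h and 24 h of formate, 5 of 27 members (18.5%) were called, against 4.56% of all tested genes (2.84% higher, 1.72% lower). ITGA9 rose by 1.56 (SE 0.33, adjusted p = 0.0309) and LAMA4 by 0.63 (SE 0.14, adjusted p = 0.0322). LAMB3 fell by 1.15 (SE 0.19, adjusted p = 0.0183), ITGA3 by 0.56 (SE 0.13, adjusted p = 0.0371) and ITGA5 by 0.50 (SE 0.12, adjusted p = 0.0367). Both comparisons use the same libraries of 24 h, so these values repeat in part those against 0 h.

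LAMA5 and LAMC1, called against 0 h, differed from 8 h by 0.83 and 0.46 with adjusted p of 0.0683 and 0.0599. ITGB3 and ITGB4 differed by 0.57 and 0.58 with adjusted p of 0.0599 and 0.0763, and ITGB8 by -0.53 with 0.163. The median over members was -0.01, against 0.02 over all genes, and 13 members (48.1%) did not overlap, beside 34.3% of all tested genes. Leaving out replicate 2 or 3 of 24 h, or replicate 1 of 8 h, left 0 members and 0 of all genes called. ITGA9 and LAMB3 were called when replicate 2 of 8 h was left out, LAMB3 alone when replicate 3 of 8 h was, and 10 members when replicate 1 of 0 h was. Of all genes 696 were called with every library, and 372, 53 and 2545 in those 3 fits.

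Genes that work with the subunits were counted in 4 lists. Of the other integrin ligands, 14 of 16 were in the table and 11 were tested at 24 h against 0 h. ICAM1, a ligand of leukocyte integrins, rose from 19.7 ± 1.11 to 30.9 ± 3.89 CPM (log2 difference 0.65, adjusted p = 0.0199), and EDIL3, an RGD protein bound by ITGAV pairs, from 126 to 197 CPM (0.64, adjusted p = 0.0378). THBS1, a matrix glycoprotein that also binds CD47, fell from 2039 to 659.6 CPM (by 1.63, adjusted p = 0.0359). Opposite-strand genes overlap 23.6% of the exons of ICAM1 and 7.58% of those of THBS1. The median of the list was -0.15, and the replicate block called 2 higher and 4 lower. With that block 24.1% of all tested genes were called, and the block counts of the lists below stand beside the same share.

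Fibronectin and tenascin, ligands of ITGA5 and ITGA9, were not called without the block. FN1 differed by -0.54 (adjusted p = 0.163) and was called lower with the block. TNC was at 1295 CPM at 0 h and 1164 CPM at 24 h (-0.15, adjusted p = 0.628).

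Of 16 basement membrane partners of laminin, 14 were tested, 0 were called at 24 h against 0 h, and the replicate block called 5 higher and 2 lower. NID1, which links laminin to collagen IV networks, was at 551 ± 154 CPM at 0 h and 908 ± 65.5 at 24 h (0.72, adjusted p = 0.0543). COL4A5, a collagen IV chain, went from 16.7 to 27.1 CPM (0.70, adjusted p = 0.0823). NTN1, a secreted guidance protein with laminin-like domains, went from 56.4 ± 13.6 to 29.6 ± 5.66 CPM (-0.93, adjusted p = 0.0525), and against 8 h it fell by 0.95 (adjusted p = 0.0485).

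Of the 13 other laminin receptors and integrin-associated membrane proteins, all were tested and 0 were called, and the block called 3 higher and 2 lower. CD44, the hyaluronan receptor, went from 999 to 769 CPM (-0.38, adjusted p = 0.0929). SDC3, a syndecan, went from 422 to 636 CPM (0.59, adjusted p = 0.108), and DAG1, which encodes dystroglycan, a laminin receptor, from 566 to 783 CPM (0.47, adjusted p = 0.108).

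Of 35 focal adhesion adaptors and kinases, which tie integrin tails to actin, 32 were tested, 0 were called, and the block called 3 higher and 5 lower. ZYX, an actin-binding adaptor of mature adhesions, went from 356 to 268 CPM (-0.41, adjusted p = 0.0563). LPXN, a paxillin relative, went from 20.8 to 12.6 CPM (-0.72, adjusted p = 0.0600), and KANK2, which binds talin, from 64.1 to 84.5 CPM (0.40, adjusted p = 0.0609). The medians of the last 3 lists were 0.05, -0.11 and -0.03. At 8 h against 0 h edgeR called 0 genes in each of the 4 lists.

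**Figure D5:**
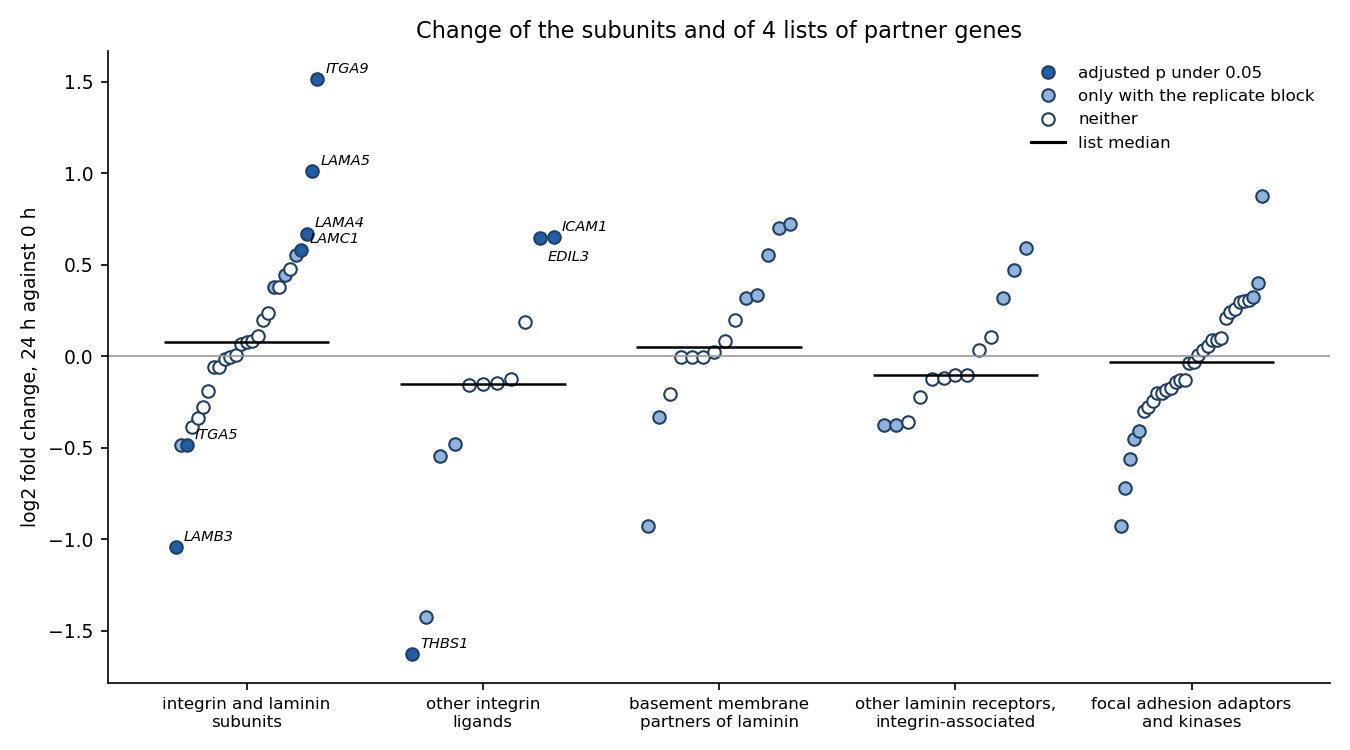
Fitted log2 fold change from 0 h to 24 h of the tested subunits and of the tested genes in 4 lists of partners, a point per gene, with the list median as a line. Dark points have an adjusted p under 0.05 and light points pass only with the replicate block; 6 subunits and 3 integrin ligands are dark and no gene of the other 3 lists is.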

How the data were processed

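The authors deposited a table of raw counts per Ensembl gene for 9 libraries, whose preparation kept the strand of the mRNA according to the labels. bcl2fastq 2.20.0.422, STAR 2.7.4a and GRCh38 appear in the submitters' processing notes. The counting program, annotation and strand setting are not given in the sources used here, so overlaps by other genes of at least 5% of exons are stated. Annotation and exon lengths came from GENCODE release 29, which held 23252 of the 23727 genes. A table of Ensembl identifiers named 19733 of them.

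Counts were filtered with filterByExpr, scaled with TMM and fitted in edgeR 4.0.16 (R 4.3.3) as 1 mean per group over 9 libraries. Quasi-likelihood tests were two-sided. Benjamini-Hochberg adjustment covered the 15273 tested genes, and the threshold was 0.05. Means are ± SD (n = 3), SEs come from the F statistic, and intervals for fold changes are 95%. Scripts were tested on simulated data. Alternatives were RLE scaling, no filter, DESeq2 1.42.0, the replicate block and leaving out libraries; leaving out a replicate number in all groups, and the transcript length, were added after seeing the data.

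Members called in any comparison with or without the block, or among the 8 highest by CPM per kb at 0 h, were given per library. From each partner list up to 3 called genes, with or without the block, with the smallest p were named; FN1 and TNC were added afterwards. Members and lists were chosen with earlier results of these data known. Deviations of same-numbered libraries from their group means correlated, across genes, at r = 0.367, 0.164 and 0.251 (0 h with 24 h). They did so at 0.476, 0.432 and 0.414 (0 h with 8 h). The title numbers were taken to pair those groups on that basis. Number 2 of 24 h with number 3 of 0 h gave r = 0.270, above the matched numbers 2 and 3. Other unmatched r there were -0.400 to 0.0115, so the pairing with 24 h is uncertain. Between 8 h and 24 h r was 0.0367 for number 2, and pairing was not shown. The block nevertheless fitted 1 effect per number over all 9 libraries, those of 8 h included.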

Additional observations from a re-analysis of the deposited data

Results flagged for a closer look

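For 5 subunits the change from 0 h differed between 8 h and 24 h of formate, by edgeR's test of 24 h against 8 h with an adjusted p under 0.05. The effect at 24 h minus that at 8 h was 1.56 for ITGA9, 0.63 for LAMA4, -1.15 for LAMB3, -0.56 for ITGA3 and -0.50 for ITGA5, on the log2 scale.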

How the results depend on the processing

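At 24 h against 0 h, 6 members were called (649 of all genes). The same 6 were called with RLE scaling (645) and with no filter (869). DESeq2 called 8 (1656 of all genes) and the replicate block 10 (3687). Leaving out 1 library gave 0 to 8 (0 to 899), and 8 to 11 together with the replicate block (2213 to 3816). Leaving out a replicate number in every group gave 0 to 10 (0 to 2616). At 24 h against 8 h, 5 were called, 9 with DESeq2 (1486 of all genes) and 9 with the replicate block (3130). Matched numbers of these 2 groups correlated at r = 0.423, 0.0367 and 0.404, so pairing was not shown for number 2. Leaving out 1 library gave 0 to 10 there (0 to 2545), and 7 to 13 with the replicate block (1179 to 5432). Leaving out a number in every group gave 0 to 10 (0 to 3072). At 8 h against 0 h every alternative called 0 members.

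In the partner lists at 24 h against 0 h, counts with no filter, DESeq2, the replicate block and 1 library left out were 2, 5, 8 and 0 to 4 for focal adhesion (0 in the main analysis), 2, 3, 7 and 0 to 1 for basement membrane (0), 0, 2, 5 and 0 for receptors (0), and 4, 3, 6 and 0 to 4 for ligands (3). At 24 h against 8 h they were 2, 5, 10 and 0 to 8 for focal adhesion (0), 1, 5, 7 and 0 to 5 for basement membrane (1), 0, 1, 5 and 0 to 4 for receptors (0), and 4, 3, 7 and 0 to 5 for ligands (2). In that order the lists held 32, 14, 13 and 11 tested genes. With the block 24.1% of all tested genes were called at 24 h against 0 h and 20.5% at 24 h against 8 h. Over all genes DESeq2 called 1656 and 1486, and the fit with no filter 869 and 852. With 1 library left out the calls over all genes were 0 to 899 and 0 to 2545. The cause of the changes between settings was not tested.

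Directions were followed only for the members given by library. With 1 library left out, those that turned were ITGA6 (-0.026 to 0.22) and ITGB1 (-0.15 to 0.080) at 24 h against 0 h, and ITGA6 (-0.058 to 0.15) and LAMB1 (-0.072 to 0.056) at 24 h against 8 h. None of these had been called. The 5 members with at most 8 counts in any library are below what this depth can compare.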
